A study of Mus musculus with 2 samples.

Results

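The opioid system genes followed here were 6 of the 32285 in the deposited tables, read across the cells of the mouse dorsal root ganglion. They are the receptor genes Oprm1, Oprd1, Oprk1 and Oprl1 and the peptide precursor genes Penk and Pnoc. They were chosen by symbol, with the fact that Oprk1 was lower in cKO neurons already known, so that difference over all neurons is a description. The ganglia came from mice at postnatal day 4, at all levels of the spine, and were profiled with a droplet-based 3′ single-cell method. One library was from Ptges3 flox/flox mice (flox) and 1 from Dhh CRE+, Ptges3 flox/flox mice (cKO), so both carried the floxed alleles of Ptges3, which encodes the cochaperone p23, also described as a prostaglandin E synthase. Dhh, desert hedgehog, is a gene of Schwann lineage cells. How many animals were in each library, and their sex, are not given in the labels.

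Opioid receptors are Gi/o-coupled receptors that close voltage-gated calcium channels, open inwardly rectifying potassium channels and lower cyclic AMP. In sensory neurons they are known for damping transmitter release and pain signals. Oprm1 encodes the mu receptor, Oprd1 the delta receptor, Oprk1 the kappa receptor and Oprl1 the nociceptin receptor, which does not bind the classical opioid peptides well. Penk encodes proenkephalin, the source of the enkephalins that act at delta and mu receptors, and Pnoc encodes prepronociceptin, the source of nociceptin.

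In GENCODE annotation of GRCm38, Oprm1 (ENSMUSG00000000766) lies at chr10:6758506-7038198 on the forward strand, and Oprk1 (ENSMUSG00000025905) at chr1:5588466-5606131 on the forward strand. Oprl1 (ENSMUSG00000027584) lies at chr2:181715016-181720985, forward. Oprd1 (ENSMUSG00000050511) lies at chr4:132110726-132144486 and Penk (ENSMUSG00000045573) at chr4:4133531-4138819, both on the reverse strand. Pnoc (ENSMUSG00000045731) lies at chr14:65400673-65425472, reverse. Penk is overlapped by A830012C17Rik, and Oprm1 by Gm10945 and Ipcef1. No gene in the deposited tables overlaps Penk or Oprm1 on the same strand. No source used here says whether the counting used strand, so reads of these pairs may not be separable.

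The precursor messages are shown first because 1 Penk or Pnoc transcript stands for a polyprotein and not for 1 peptide. The longest open reading frame of Penk in the GENCODE transcripts (807 bases) held 6 stretches coding for the Met-enkephalin sequence and 1 for that of Leu-enkephalin. Each was preceded by codons for a pair of basic residues, where the precursor is cleaved. After copies 4 and 7 the flank does not code for such a pair, so release of Met-enkephalin itself from these copies is not shown. The open reading frame of Pnoc (639 bases) held the start of nociceptin once, also after a basic pair. The capitals mark the peptide codons, with 6 bases of flank on either side. The nociceptin line differs from the enkephalin lines in its first codon, which codes for phenylalanine where enkephalins have tyrosine.
Penk copy 1, Met-enkephalin: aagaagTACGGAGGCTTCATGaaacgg
Penk copy 4, Met-enkephalin: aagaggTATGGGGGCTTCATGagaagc
Penk copy 6, Leu-enkephalin: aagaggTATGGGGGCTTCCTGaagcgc
Penk copy 7, Met-enkephalin: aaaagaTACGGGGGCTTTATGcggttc
Pnoc, nociceptin start: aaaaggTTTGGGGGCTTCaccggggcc

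The flox library had 132620886 UMIs (unique molecular identifiers, each counting 1 captured RNA molecule) and the cKO library 78144437. After filtering there were 8107 flox and 7866 cKO cells, and 16 of these barcodes occurred in both libraries. Clusters made without the 6 genes gave 1520 sensory-neuron-like cells in flox and 3105 in cKO, with median depths of 47503 and 9074 UMIs, and each neuron cluster carried 8 or 9 of 9 sensory neuron markers such as Avil and Prph. The flox library also held 166 astrocyte-like cells and 3 oligodendrocyte-like clusters of 155 to 267 cells, types of the central nervous system, of which the cKO library had none. In 18 neuron sub-clusters there were under 10 flox cells, and these held 41.8% of cKO neurons (median depth 7330 UMIs) and 1.84% of flox neurons. Several of them had genes of other cells among their leading genes (Col1a1, Hbb-bt, Pf4), and others had neuronal genes such as Tac1 and Nefh. Another sub-cluster had 46 flox and 8 cKO cells. A further 28.5% of cKO and 28.0% of flox neurons fell in sub-clusters that both libraries shared and that carried no name. Comparisons within a named subtype therefore cover 29.4% of cKO and 67.1% of flox neurons, to which an unnamed group led by Car8 adds 76 and 117 cells. Over all neurons, satellite glia markers summed to 1056 CPM (UMIs per 1000000 UMIs of the group) in flox and 1759 CPM in cKO, and fibroblast markers to 205 and 442 CPM, with none of the 8 markers in either list at 0. Ptges3 was at 254 CPM in flox and 130 CPM in cKO peripheral glia, and at 275 and 391 CPM in neurons. With 1 library per genotype there is no replicate check and no test. Intervals are at 95% and cover counting error only, and levels are UMIs summed over the cells of a group, scaled to the group's total.

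The 4 receptors and Pnoc were almost wholly neuronal. Neurons held 97.6% of the Oprm1 UMIs of the flox library and 99.3% of those of the cKO library. For Oprk1 the neuronal shares were 98.5% and 98.8%, for Oprl1 96.3% and 98.6%, for Pnoc 92.3% and 95.7%, and for Oprd1 100% in each. Penk differed from the rest. Only 5.92% of its flox UMIs and 26.4% of its cKO UMIs were in neurons, while fibroblast-like cells held 92.6% and 71.6%. Neurons were 18.7% of flox and 39.5% of cKO cells. Their median depths were 47503 and 9074 UMIs, against 6886 and 4319.5 over all cells of the library. A gene at the same level in all cells would thus also have a large neuronal share, and that share would differ between the libraries.

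Over all neurons, Oprk1 was the member that differed most between the libraries. It stood at 2.96 CPM in flox (202 UMIs) and 1.62 CPM in cKO (84 UMIs), a log2 ratio of cKO over flox of -0.87 (interval -1.25 to -0.50). Of 15012 genes with at least 50 UMIs, 0.66% had a lower ratio. Of the 5 members with that many UMIs, Oprk1 was the 1 that was at least 0.5 lower, a difference that 4.32% of all those genes showed. Oprm1 lay just under 0.5 in the other direction, at 4.12 CPM in flox and 5.77 CPM in cKO, with a log2 ratio of 0.49 (0.25 to 0.73). At least 0.5 higher in cKO were 9.57% of genes. Oprl1 stood at 7.96 and 6.73 CPM, a ratio of -0.24, and Pnoc at 2.80 and 2.55 CPM, a ratio of -0.14. Penk stood at 1.48 and 1.06 CPM, a ratio of -0.48 (-0.98 to 0.01). Oprd1 had 20 UMIs in flox and 24 in cKO, too few to place its ratio of 0.66 (-0.26 to 1.59), which was -0.82 when each cell counted equally.

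**Figure D1:**
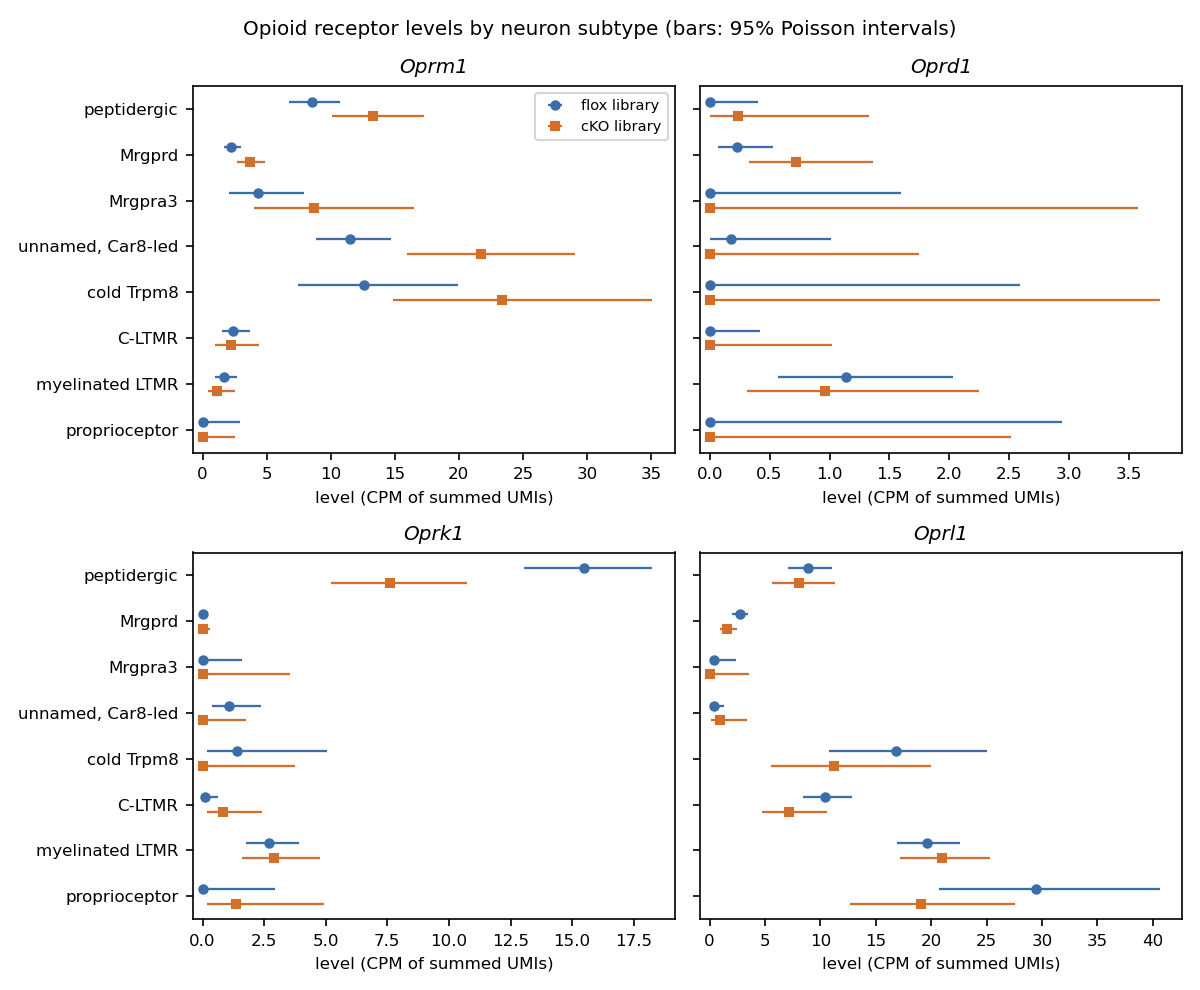
Levels of the 4 receptor genes (x axis, CPM of summed UMIs) in each neuron subtype (y axis) for the flox library (blue circles) and the cKO library (orange squares), with bars for 95% Poisson intervals that cover counting error only. Oprk1 stands out in the peptidergic-like cells at 15.5 CPM in flox and 7.62 CPM in cKO, and Oprl1 in the proprioceptor-like and myelinated mechanoreceptor-like cells. LTMR stands for low-threshold mechanoreceptor.

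Oprk1 was read within subtypes because the libraries differed in their subtype shares. It was concentrated in peptidergic-like neurons, the nociceptors that make the neuropeptides CGRP (Calca) and substance P (Tac1) and that were led here by Cartpt, Gal and Tac1. These 182 flox and 159 cKO cells held 69.8% of the neuronal Oprk1 UMIs in flox and 38.1% in cKO, where neurons outside the named subtypes held another 38.1%. There Oprk1 stood at 15.5 CPM in flox (13.0 to 18.3, 141 UMIs) and 7.62 CPM in cKO (5.21 to 10.7, 32 UMIs). The log2 ratio was -1.02 (-1.63 to -0.46), and 0.77% of the genes measured in these cells had a lower one. Of those genes, 7.82% were at least 0.5 lower in cKO. Since these cells hold 141 of the 202 flox UMIs, their ratio is not independent of that over all neurons. Giving each named subtype and the Car8-led group the same weight in both libraries, which takes out their differing shares, gave 3.03 CPM in flox and 1.83 CPM in cKO. That ratio was -0.73. It leaves out all other neurons, and the named subtypes held 29.4% of cKO and 67.1% of flox neurons. Without the cell with most Oprk1 UMIs in each library (9 in flox, 7 in cKO) the ratio was -1.28, an alternative chosen after seeing the data.

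Few peptidergic-like cells held an Oprk1 UMI in either library. In flox, 50 of 182 cells had a UMI, 22 of them exactly 1, and 8 cells had 6 or more. In cKO, 20 of 159 cells had a UMI, 14 of them exactly 1, and 1 cell had 6 or more. The shares, 27.5% (21.1 to 34.6) and 12.6% (7.86 to 18.8), were taken at median depths of 48692 and 24925 UMIs, which bear on the numbers of UMIs per cell too. A single random draw of 1000 UMIs per cell left 7 positive cells in flox (3.85%) and 1 in cKO (0.63%), whereas a single draw of 5000 UMIs left 5 of 180 (2.78%) and 7 of 149 (4.70%), the opposite order to the level. Such a draw keeps a handful of Oprk1 UMIs, and no order is read from it. The mean over all possible draws, computed exactly and added after the single draws had been seen, was 1.41% in flox and 0.60% in cKO at 1000 UMIs, and 6.08% and 2.95% at 5000. In peripheral glia, which should lack the receptor, 1 of 3694 flox and 1 of 2995 cKO cells had an Oprk1 UMI at median depths of 5795 and 3066.

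**Figure D2:**
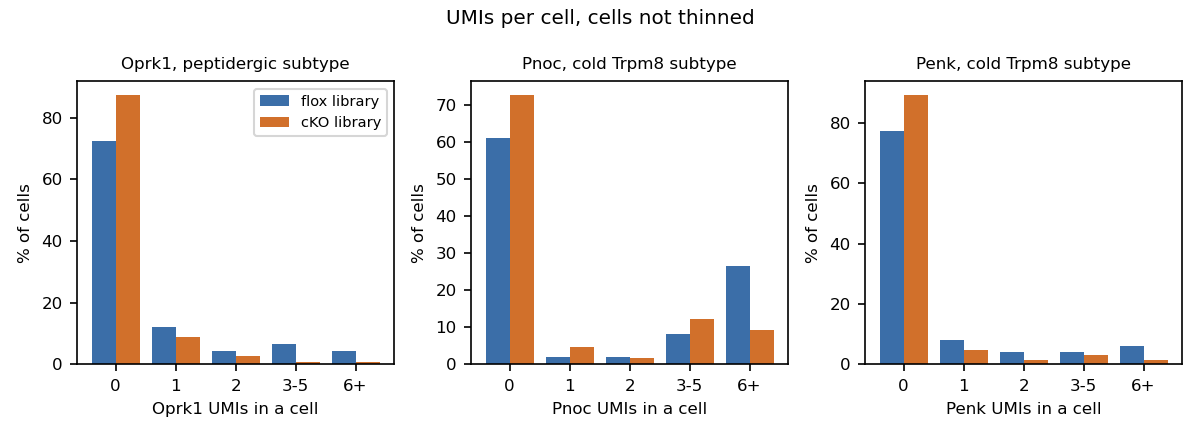
Share of cells (y axis, %) with 0, 1, 2, 3 to 5 or at least 6 UMIs of a gene (x axis), for Oprk1 in peptidergic-like cells and for Pnoc and Penk in cold Trpm8-like cells, flox in blue and cKO in orange, cells not thinned. Most cells have no UMI, and the cells with 6 or more form 4.40% of flox and 0.63% of cKO cells for Oprk1, at unequal depths.

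Some other markers of the peptidergic-like cells were compared beside it. Calca stood at 8853 CPM in flox and 5130 CPM in cKO, a log2 ratio of -0.79, and Calcb, a second CGRP gene, at 288 and 198 CPM, a ratio of -0.54. Trpv1, the capsaicin receptor, had a ratio of -0.27, and Tac1 -0.12. Kit, a receptor tyrosine kinase, had 0.07. In the same cells Schwann cell markers summed to 2311 CPM in flox and 1407 CPM in cKO (10 genes, none at 0), and satellite glia markers to 1853 and 2306 CPM (8 genes, none at 0). Fibroblast markers summed to 518 and 358 CPM (8 genes, none at 0). The part of this other RNA in the Oprk1 difference was not tested.

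Among the other named subtypes Oprk1 was found mainly in myelinated low-threshold mechanoreceptor-like neurons, large touch neurons. Its level there was 2.68 CPM in flox (26 UMIs in 13 of 138 cells) and 2.89 CPM in cKO (15 UMIs in 10 of 144 cells), a ratio of 0.11 with a wide interval (-0.92 to 1.08). The difference between the 2 subtypes was not tested, and their intervals overlapped. Among the 3 sub-clusters, that led by Cck and Pcdh7 had 4.70 and 5.48 CPM, and that led by Hopx had 15 UMIs in flox and 1 in cKO. Oprk1 was not detected in 390 flox and 286 cKO non-peptidergic Mrgprd-like neurons, which allows shares of up to 0.77% and 1.05% of cells with a UMI at a limit of 3 counts.

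**Figure D3:**
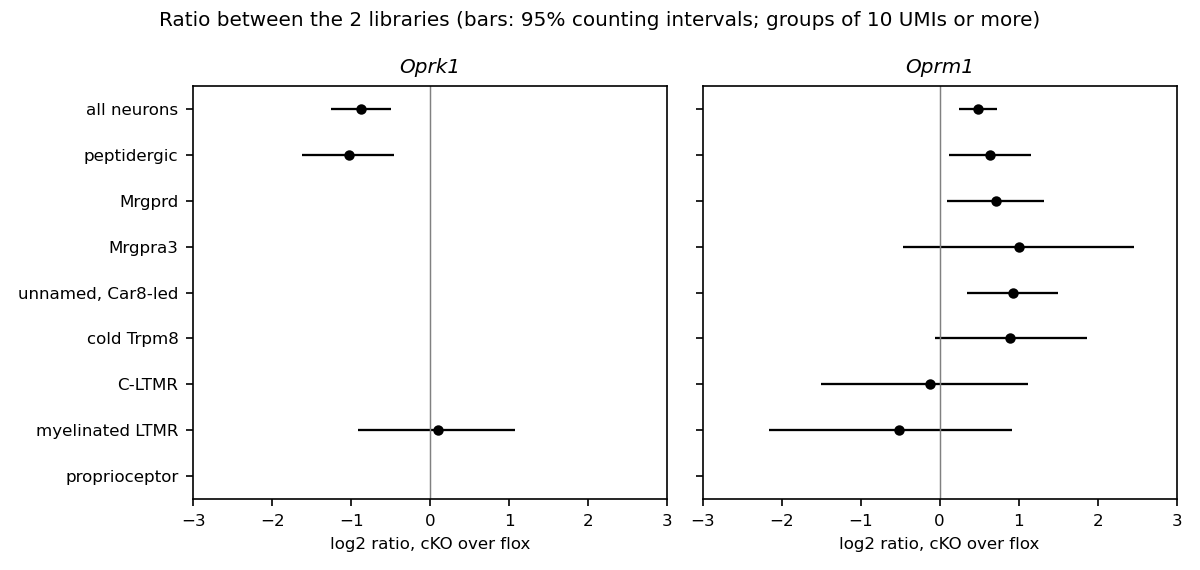
Log2 ratio of cKO over flox (x axis) of Oprk1 and Oprm1 over all neurons and in each subtype (y axis) with at least 10 UMIs in all, with bars for 95% counting intervals and a line at 0. Oprk1 lies below 0 in peptidergic-like cells (-1.02) and at 0.11 in myelinated LTMR-like cells, and Oprm1 lies above 0 in the nociceptor and cold groups.

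Oprm1 ran the other way. In the peptidergic-like cells in which Oprk1 was lower in cKO, Oprm1 was higher, with 8.56 CPM in flox (78 UMIs) and 13.3 CPM in cKO (56 UMIs), a ratio of 0.64 (0.12 to 1.15). At least 0.5 higher in these cells were 6.33% of genes. The share of cells with an Oprm1 UMI had the opposite order, 30.8% in flox and 25.8% in cKO, at these unequal depths, and the mean over all draws of 5000 UMIs was 4.72% and 6.46%. A group led by Car8 and Etv1, left unnamed although it had some Mrgpra3 pruriceptor markers, had 11.5 CPM (63 UMIs in 117 cells) in flox and 21.8 CPM (46 UMIs in 76 cells) in cKO. Its ratio was 0.92 (0.34 to 1.49), against 8.83% of genes at least 0.5 higher. Each of its sub-clusters gave a like ratio, 1.06 and 1.03, against 7.98% and 8.91% of genes. Satellite glia markers summed to 1237 CPM in flox and 2520 CPM in cKO in the Car8-led cells (8 genes, none at 0), and their part in the ratio was not tested.

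In cold Trpm8-like neurons, which carry the menthol and cold receptor, Oprm1 stood at 12.6 CPM in flox (18 UMIs, 49 cells) and 23.4 CPM in cKO (23 UMIs, 66 cells), a ratio of 0.89 whose interval reached 0 (-0.06 to 1.87), against 6.56% of genes at least 0.5 higher. Non-peptidergic Mrgprd-like neurons, which end in the outer skin, were lower, at 2.25 and 3.67 CPM (50 and 46 UMIs), a ratio of 0.71 (0.10 to 1.32), against 8.34% of genes at least 0.5 higher. Most of these cells came from different sub-clusters in the 2 libraries, number 1 with 346 flox and 38 cKO cells and number 4 with 44 and 248. Mrgpra3 pruriceptor-like neurons, an itch subtype, had 10 and 9 UMIs, a ratio of 1.01 (-0.47 to 2.46), against 13.6% of genes.

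The mechanoreceptors had little Oprm1. It stood at 2.41 and 2.22 CPM in C-low-threshold mechanoreceptor-like neurons (21 and 8 UMIs) and at 1.65 and 1.15 CPM in myelinated ones (16 and 6 UMIs). Their ratios were -0.12 (-1.50 to 1.11) and -0.51 (-2.16 to 0.91), and 6.84% of genes were at least 0.5 lower in the myelinated ones. All 16 and 6 UMIs of the myelinated ones lay in the Hopx-led sub-cluster (72 flox and 47 cKO cells). Oprm1 stood there at 2.93 and 3.37 CPM, a ratio of 0.20 (-1.44 to 1.63), and the other sub-clusters had 0 UMIs. The part of the differing sub-cluster shares in the ratio of -0.51 was not tested. No Oprm1 UMI was found in 38 flox and 111 cKO proprioceptor-like neurons, which sense muscle stretch. Among the groups in the plot of receptor levels, the cold, Car8-led and peptidergic-like cells had the most Oprm1 in both libraries, and their intervals overlapped in each. Myelinated mechanoreceptor-like and proprioceptor-like cells had the least.

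Oprm1 and Oprk1 were found in partly overlapping peptidergic-like cells. In flox, 20 of 182 cells had a UMI of both, 30 of Oprk1 alone and 36 of Oprm1 alone. In cKO, 5 of 159 had both, 15 Oprk1 alone and 36 Oprm1 alone. At these counts per cell, a 0 does not show that a cell lacks the message.

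Oprd1 was the scarcest receptor in UMIs, with no more than 2 UMIs in any neuron. It was found mostly in myelinated mechanoreceptor-like neurons, with 11 UMIs in flox and 5 in cKO (1.13 and 0.96 CPM), and in Mrgprd-like neurons, with 5 and 9 (0.22 and 0.72 CPM). Peptidergic-like cells held 0 in flox and 1 in cKO. No comparison between libraries could be made at this depth.

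Oprl1 had another distribution, with its highest levels among named subtypes in large-diameter neurons. Proprioceptor-like cells had 29.5 CPM in flox (20.8 to 40.6, 37 UMIs) and 19.1 CPM in cKO (12.7 to 27.6, 28 UMIs), and myelinated mechanoreceptor-like cells 19.6 CPM (190 UMIs) and 21.0 CPM (109 UMIs). Between the libraries the ratios were -0.63 (-1.39 to 0.12) and 0.10 (-0.25 to 0.45), and 17.9% of genes were at least 0.5 lower in the proprioceptor-like cells. There the subtype's own marker Pvalb stood at 4399 CPM in flox and 2201 CPM in cKO, Etv1, Runx3, Whrn and Heg1 had ratios of -1.23, -0.67, -0.70 and -2.19, and Spp1 had 0.33. In these cells the share of cells with an Etv1 UMI was 97.4% in flox and 48.6% in cKO, cells not thinned. The depths were unequal, with 36 of 38 flox and 81 of 111 cKO cells at 5000 UMIs or more. The part of these marker differences in the Oprl1 ratio was not tested. Cold Trpm8-like cells came next in flox, at 16.8 CPM (24 UMIs) against 11.2 CPM (11 UMIs) in cKO. C-low-threshold mechanoreceptor-like cells stood at 10.4 CPM and 7.21 CPM, and peptidergic-like cells at 8.89 and 8.09 CPM, with ratios of -0.53 (-1.22 to 0.11, against 8.55% of genes) and -0.14 (-0.76 to 0.46). It was low in Mrgprd-like cells, at 2.70 and 1.60 CPM, a ratio of -0.76 (-1.56 to -0.01), and this ratio became 0.85 when neurons were divided more finely. At least 0.5 lower in the Mrgprd-like cells were 7.62% of genes. In the Car8-led group it had 2 UMIs in each library and in Mrgpra3-like cells 1 and 0.

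Among myelinated mechanoreceptor-like neurons the Cck-led and Pcdh7-led sub-cluster had the highest Oprl1, 38.0 CPM in flox (89 UMIs) and 24.9 CPM in cKO (59 UMIs). That ratio was -0.61 (-1.11 to -0.12), against 9.81% of genes at least 0.5 lower. The Hopx-led sub-cluster gave 13.9 and 18.6 CPM, a ratio of 0.42 (-0.22 to 1.02). The third, led by Lypd1, gave 13.2 and 16.2 CPM, a ratio of 0.30 (-0.68 to 1.24). The last 2 intervals include 0, so an opposite sign in those sub-clusters is not established. The difference between the sub-clusters was not tested.

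Pnoc marked the cold Trpm8-like neurons, with 93.2% of neuronal Pnoc UMIs in flox and 64.4% in cKO. Its level there was 125 CPM in flox (107 to 144, 178 UMIs) and 86.4 CPM in cKO (69.1 to 107, 85 UMIs). The log2 ratio was -0.53 (-0.92 to -0.15), in cells where 10.2% of genes were at least 0.5 lower. Counting each cell equally brought the levels to 120 and 106 CPM. The UMIs came from few cells, 19 of 49 in flox and 18 of 66 in cKO, with up to 18 and 17 in 1 cell, so the Poisson intervals are too narrow for the spread between cells. The mean share over all draws of 5000 UMIs was 28.4% in flox and 24.3% in cKO. No Pnoc UMI was found in Mrgprd-like cells of either library. In the cold cells themselves Trpm8 stood at 144 and 201 CPM, a ratio of 0.49, and the transcription factor gene Foxp2 at 93.9 and 90.5 CPM. Satellite glia markers summed to 2587 and 3211 CPM there (8 genes, none at 0), fibroblast markers to 293 and 525 CPM (8 genes, 1 at 0 in each library), and their part in the Pnoc difference was not tested.

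Outside the cold subtype Pnoc was rare. Peptidergic-like cells had 0 UMIs in flox and 10 in cKO, which lay in 5 of 159 cells, and the lower limit of the log2 ratio was 2.28. C-low-threshold mechanoreceptor-like cells had 9 UMIs in 2 of 190 flox cells and 15 in 4 of 125 cKO cells, with 9 of those 15 in 1 cell.

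Penk in neurons was also highest in the cold subtype, which held 71.3% of its neuronal UMIs in flox and 65.5% in cKO. It stood at 50.4 CPM in flox (39.5 to 63.5, 72 UMIs) and 36.6 CPM in cKO (25.6 to 50.7, 36 UMIs), a ratio of -0.46 (-1.08 to 0.13). Only 11 of 49 flox and 7 of 66 cKO cells had a UMI, and 1 cell held 29 of the 72 and another 24 of the 36. Without those 2 cells 43 and 12 UMIs were left and the ratio was -1.30, so its size rests on single cells. Penk and Pnoc were often found in the same cold cells, 8 flox cells with both against 3 with Penk alone and 11 with Pnoc alone, and 4 cKO cells with both against 3 and 14. Other subtypes had at most 11 Penk UMIs in a library.

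**Figure D4:**
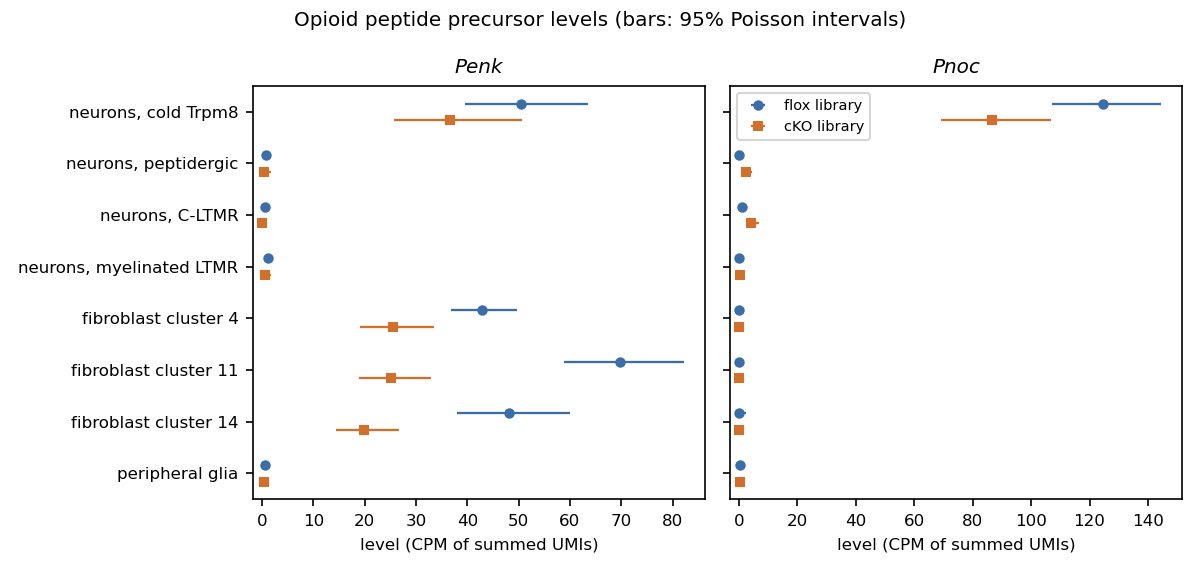
Levels of the precursor genes Penk and Pnoc (x axis, CPM of summed UMIs) in neuron subtypes, the 3 fibroblast-like clusters found in both libraries and peripheral glia (y axis), flox in blue and cKO in orange, with bars for 95% Poisson intervals. Pnoc is high in cold Trpm8-like neurons only among the groups drawn, while Penk is also high in the fibroblast-like clusters, where flox lies above cKO in each.

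Fibroblast-like cells, identified by collagens, Dcn and Pdgfra, were the main source of Penk UMIs. The 3 clusters found in both libraries (943 flox and 1174 cKO cells) had 51.0 CPM in flox (402 UMIs) and 23.4 CPM in cKO (149 UMIs). The ratio was -1.12 (-1.40 to -0.85), in cells where 18.8% of genes were at least 0.5 lower. Each cluster had the same direction. Cluster 11, led by Apod, Ccl11 and Lum, went from 69.8 CPM in flox to 25.1 CPM in cKO, a ratio of -1.47 (-1.96 to -1.01). Cluster 14, led by Ecrg4, Eln and Mgp, went from 48.1 to 19.9 CPM, a ratio of -1.28 (-1.84 to -0.72). Cluster 4, led by Ly6a, Igfbp6 and Fbn1, went from 43.0 to 25.6 CPM, a ratio of -0.75 (-1.22 to -0.29). The background of genes at least 0.5 lower was 20.1%, 18% and 16.2% in these clusters, so a lower level was common there.

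Another fibroblast-like cluster, led by Ptgds, Wnt4 and Slc6a13, had 338 flox cells and 3 cKO cells. Its Penk level in flox was 312 CPM (1178 UMIs in 198 cells), the highest of any fibroblast-like cluster, so the ratio of -2.54 over all fibroblast-like cells (against 18.3% of genes) mixes level with which clusters were captured. In the 3 shared clusters, 156 of 943 flox cells (16.5%) and 102 of 1174 cKO cells (8.69%) had a Penk UMI at median depths of 6508 and 4650. The mean over all draws of 1000 UMIs was 4.14% and 2.32%. In peripheral glia the unthinned shares were 0.379% and 0.134%. Ptges3 in these 3 clusters was at 175 CPM in flox and 229 CPM in cKO.

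Genes that process, break down or act downstream of opioids were compared from 7 lists, whose counts are read against the 4.32% of genes at least 0.5 lower and the 9.57% at least 0.5 higher over all neurons. Precursor processing genes had none of 8 past 0.5 in neurons. Among them Pcsk1n, which encodes an inhibitor of the convertase PCSK1, stood at 2804 and 2144 CPM, a ratio of -0.39, and Pam, which amidates peptides, at 65.3 and 71.8 CPM. Of 7 measured peptidase genes, 1 was lower, Ece2, at 18.7 and 12.6 CPM (-0.58, -0.71 to -0.44). Mme, the gene of the enkephalin-degrading enzyme neprilysin, had a ratio of 0.12 over all neurons and -0.77 (-1.50 to -0.09) in peptidergic-like cells, at 9.33 and 5.47 CPM, against 7.82% of genes at least 0.5 lower there. With 4 to 18 genes a list, counts of 0 or 1 in a direction are not set apart from these shares.

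None of the 12 Gi/o protein genes passed 0.5, and Gnao1, the main neuronal alpha subunit, stood at 663 and 698 CPM. Of 10 measured effector genes, 1 was lower, the potassium channel gene Kcnj6, with 40 and 21 UMIs and a ratio of -0.53 whose interval reached past 0 (-1.37 to 0.26), against 4.32% of genes. Of 18 regulators, Grk2, the kinase that phosphorylates active receptors, was higher at 94.0 and 134 CPM (0.52, 0.47 to 0.57), and Rgs14 was lower at 8.75 and 5.80 CPM (-0.59), against 9.57% of genes higher and 4.32% lower. In peptidergic-like cells Grk2 had a ratio of 0.55, against 6.33% of genes. Of 6 other precursor and receptor genes, 1 was higher, Ackr3, a chemokine receptor that also binds opioid peptides, at 1.01 and 2.08 CPM (1.04, 0.59 to 1.50), against 9.57% of genes. Pdyn, which encodes the precursor of dynorphin, the main ligand of the kappa receptor, had 45 and 33 UMIs and a ratio of -0.05. Of 4 prostaglandin E2 receptor genes, 1 was higher, Ptger2, at 1.45 and 2.76 CPM (0.93, 0.55 to 1.31), against the same share. List medians ran from -0.19 to 0.10, beside -0.02 over all measured genes.

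By correlation over the 9 neuron sub-clusters with enough flox cells, the genes with the pattern most like Oprk1 were Sulf1, Mag and Apeh (r = 0.94 to 0.95), and those most like Oprl1 were Slc22a23, Gemin5 and Fam171a1 (0.97 to 0.99). Over the 21 such cKO sub-clusters the same pairs gave 0.14 to 0.40 for Oprk1, and 0.72 (Slc22a23), 0.09 (Gemin5) and 0.76 (Fam171a1) for Oprl1. For Oprm1 they were Arhgef28, Zfp827 and Ndst3 (0.95 to 0.96 in flox, 0.16 to 0.56 in cKO), and for Oprd1 Adam23, Sec23a and Ntng1 (0.91 to 0.94, and 0.45 to 0.55). For Penk they were Zrsr1, Ndufb5 and Lmo1 (0.95 to 0.97, and -0.11 to 0.51), and for Pnoc Get4, Nbn and Bcl2l1 (0.74 to 0.75, and -0.08 to -0.02). The sub-clusters of a library share its depth and free RNA, and cold Trpm8-like cells were too few in flox to be among the 9. Those cold cells held 93.2% of the flox neuronal Pnoc UMIs and 71.3% of those of Penk, so few UMIs lie behind the values of these genes. Also left out were the proprioceptor-like cells (38 in flox) and the Cck-led and Pcdh7-led sub-cluster (39 in flox). Their flox Oprl1 levels were 29.5 and 38.0 CPM, so the flox correlations of Oprl1 do not cover these sites of high Oprl1. The genes named were picked as the 3 highest of many over 9 points, so high flox values follow from the choice and are no sign of a shared pattern.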

How the data were processed

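Deposited counts, whole UMI counts per gene and cell, were used as deposited for 1 flox and 1 cKO library. The authors made them with cellranger 6.1.2 per the file headers, whereas the submitters' processing notes list Cell Ranger 5.0.1, Scanpy and mm10. No source used here states how introns and strand were treated. The 6 genes and all lists were chosen with earlier results of these data known. Barcodes under 1000 UMIs or 500 genes, or over 15% mitochondrial UMIs, were dropped (leaving 8714 flox, 8435 cKO). Scrublet (scanpy 1.11.5) called 0 and 5 doublets, so a fixed share with the top scores, 0.8% per 1000 cells, was taken out (607 and 569). Cells were clustered with both libraries together (2000 variable genes without the 6 genes and the listed pathway genes, 30 components, 15 neighbours, Leiden resolution 1.0), and neurons again with 20 components.

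Names of neuron subtypes needed 3 markers and a marker among the 10 leading genes. Names of cell classes needed 3 markers, and no other class could have more of its markers among the leading genes. These naming rules, the minimum of 10 cells in each library for a shared sub-cluster, and the joining of sub-clusters led by Car8 were set after clusters had been seen with the levels of the 6 genes beside them. Intervals are exact at 95%: Poisson for levels, Clopper-Pearson for shares (a share of 0 is given the limit of 3 counts instead), conditional binomial for ratios. Calls of higher or lower needed a log2 ratio of 0.5 and 50 UMIs over both libraries. Named genes were the 6 members and Ptges3, for each member the 3 genes with the highest correlation of log2(CPM + 10) over flox sub-clusters of at least 50 cells (genes with at least 500 UMIs), and the 2 highest and 2 lowest of each pathway list with at least 5 measured genes. Pdyn, Mme and the subtype markers were named after their values were seen. Scripts were tested on simulated data. The transcript sequences are from GENCODE vM21, where 32235 of 32285 gene identifiers were found. edgeR 4.0.16 gave TMM factors only, numpy 2.4.6 and scipy 1.17.1 the rest.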

Additional observations from a re-analysis of the deposited data

Results flagged for a closer look

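Pnoc had ratios of opposite sign in 2 neuron subtypes, each with a counting interval that left out 0. In C-low-threshold mechanoreceptor-like cells the log2 ratio of cKO over flox was 2.01 (0.72 to 3.38, 9 and 15 UMIs), and in cold Trpm8-like cells it was -0.53. The difference between the subtypes was not tested. The first value rests on 2 flox and 4 cKO cells with a UMI, and 1 cKO cell held 9 of the 15. Peptidergic-like cells had 0 UMIs in flox and 10 in cKO, so no ratio could be given there, but its lower limit was 2.28.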

How the results depend on the processing

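No paired analysis was possible because each genotype had 1 library, and for the same reason no replicate could be left out. Of 88 alternative values for the main results, 73 stayed within the reported interval. The 73 include values that could not leave it, since keeping only members with at least 50 UMIs repeats the reported ratio over all neurons. Clustering with the members included kept the same neuronal UMIs of each member. The count of 73 therefore overstates how far the results were tried. Thinning each cell to 1000 UMIs left 3 to 22 UMIs of a gene in a library and gave log2 ratios in all neurons of 1.43 for Oprm1, -1.62 for Oprk1, -1.20 for Oprl1, -2.03 for Penk and -0.84 for Pnoc, and -2.61 for Oprk1 in peptidergic-like cells (7 and 1 UMIs). Counting each cell equally gave -0.47 for Oprl1, -0.71 for Pnoc and -0.82 for Oprd1, which changed sign, and 25.2 CPM for Penk in cKO cold cells. A marker gate in place of clusters gave -1.67 for Oprk1 in peptidergic-like cells, over 365 flox and 1105 cKO cells, and it assigned only 1 flox cell to the cold subtype. The Oprk1 share in peptidergic-like cells was 27.5% in flox and 12.6% in cKO without thinning, 1.41% in flox as the mean over all draws of 1000 UMIs, and 4.70% in cKO in 1 draw of 5000. Finer sub-clusters turned Oprl1 in Mrgprd-like cells to 0.85. Over all neurons, Oprk1 ran from -1.62 to -0.73 and Oprm1 from 0.45 to 1.43 over these settings, and no alternative changed the sign of either. The -0.73 came from weighting each subtype by its mean share over the libraries, alike in both, and covers the named subtypes and the Car8-led group only. The causes of these shifts were not tested. Depth limits Oprd1, and every statement on cold cells rests on under 70 cells per library.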

Other observations

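Some neurons outside the named subtypes also carried these genes. A sub-cluster led by Miat, Nrp1 and Islr2 (100 flox and 24 cKO cells) had 16.2 CPM of Oprk1 (12 UMIs), 25.7 CPM of Oprl1 (19 UMIs) and 10.8 CPM of Oprm1 (8 UMIs) in flox, and 1, 2 and 1 UMIs in cKO. The 1299 cKO neurons in the 18 sub-clusters with under 10 flox cells held 62 Oprm1 UMIs (4.57 CPM), 86 Oprl1 UMIs (6.34 CPM) and 21 Oprk1 UMIs (1.55 CPM). Satellite glia markers summed to 2944 CPM in these cells (8 genes, none at 0).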
